A study of Mus musculus with 6 samples.

Results

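Splicing factor genes were followed in myeloid-derived suppressor cells (MDSCs) from the spleens of aged mice that carried or lacked a receptor for tumour necrosis factor. They were the genes whose symbols begin with Srsf, Sf3, Snrp, Hnrnp, Prpf, Lsm with a digit, U2af, Rbm, Celf, Mbnl, Srrm or Magoh. This rule uses the symbol only but was set with earlier results of these data known, and 69 of the 8191 genes in the expression table met it. They fell into 12 roles, from 21 RBM and 10 hnRNP proteins to 1 SRRM protein, and no Mbnl gene was in the table. MDSCs, immature myeloid cells that restrain T cells, came from mice of the BALB/c background that were WT, Tnfr1-/- or Tnfr2-/-. The Tnfr1-/- mice lack TNFR1 and the Tnfr2-/- mice lack TNFR2 in every cell, so no group separates the receptor's loss in MDSCs from its loss elsewhere. There were 2 samples of each genotype, 6 in all, each pooled from 5 mice aged 18 to 24 months and taken untreated and uncultured to mRNA-seq with single-end reads of 50 bases. The labels name cell sorting and the study's methods an isolation kit as the way the cells were obtained. Nothing beyond the 2 experiments of the study separates the samples of a genotype, so a p-value measures the spread between 2 pools.

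Splicing removes introns from precursor RNA in the spliceosome, which is built on each intron from small nuclear ribonucleoproteins (snRNPs). The U1 snRNP binds the start of the intron, U2 with the SF3 and U2AF proteins binds the branch site and the intron's end, and the U4/U6 and U5 snRNPs join as a unit and rearrange into the active enzyme. SR proteins, hnRNPs and other RNA-binding proteins steer the choice of exons, and the exon junction complex stays on the spliced mRNA.

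Each value is an FPKM, the fragments of a gene scaled to transcript length and to the mapped fragments of its sample. The table gives no counts, and depth is therefore unknown. Every gene of the table had already been picked by the authors for a one-way ANOVA p-value under 0.05 over the 3 genotypes, and the largest p-value recomputed from the FPKM was 0.04995, so a difference somewhere among the genotypes was a condition for being listed. The adjusted p-values below come from the same values, so they do not hold their nominal false discovery rate. The listed genes summed to between 344714 and 346870 FPKM in WT, between 133604 and 134343 FPKM in Tnfr1-/- and between 148956 and 155248 FPKM in Tnfr2-/- samples, and how far this gap reflects the cells or the making of the values was not tested. Tnfrsf1b, which encodes TNFR2, was at 111.8 and 114.9 FPKM in WT, 47.8 and 69.6 FPKM in Tnfr1-/- and 11.3 and 14.3 FPKM in Tnfr2-/- MDSCs, and Tnfrsf1a, which encodes TNFR1, was not analysed here. Summed macrophage markers (10 of 10 listed, none at 0) ran from 3525 to 3628 FPKM in WT samples, against 282 to 324 FPKM (Tnfr1-/-) and 357 to 393 FPKM (Tnfr2-/-). Granulocyte markers (3 of 14 listed, none at 0) ran the other way, from 13.7 to 15.4 FPKM in WT against 2732 to 3070 FPKM and 1522 to 2450 FPKM, so that the WT samples held little of the granulocyte markers Retnlg, Mmp9 and Csf3r that granulocytic MDSCs carry. Monocytic markers (4 of 7) summed to 240 to 253, 255.8 to 303 and 483 to 624 FPKM, dendritic cell markers (4 of 6) to 228 to 231, 16.3 to 17.99 and 24.4 to 25.4 FPKM, B cell markers (4 of 6) to 46.5 to 46.9, 318 to 382 and 167 to 299 FPKM, and T and NK cell markers (3 of 7) to 32.7 to 36.4, 37.6 to 42.97 and 20.1 to 22.9 FPKM in WT, Tnfr1-/- and Tnfr2-/- samples, while none of 7 erythroid markers was listed. Some single markers did not follow these sums. Itgax made up nearly all of the WT sum of dendritic cell markers. It was at 218.9 and 215.7 FPKM in WT against 12.5 and 12.6 FPKM (Tnfr1-/-) and 13.3 and 17.1 FPKM (Tnfr2-/-). Cd209a and Zbtb46 were also highest in WT. Flt3 was lowest there, at 0.156 and 0.26 (WT), 1.496 and 1.21 (Tnfr1-/-) and 2.34 and 1.82 FPKM (Tnfr2-/-). Of the monocytic list, Csf1r made up nearly all of the WT sum, at 224.7 and 237.5 FPKM against 71.3 and 92.6 FPKM (Tnfr1-/-) and 137.03 and 171.03 FPKM (Tnfr2-/-), whereas Ly6c1 (0.0638 to 0.159, 95.8 to 99.6 and 121.4 to 178.1 FPKM in WT, Tnfr1-/- and Tnfr2-/-), Ccr2 (14.9 to 14.995, 80.02 to 100.9 and 198.7 to 229.2 FPKM) and Cx3cr1 (0.388 to 0.603, 8.63 to 9.88 and 25.7 to 45.9 FPKM) were lowest in WT. Cd4 made up most of the WT sum of T and NK cell markers, at 24.2 to 25.7 FPKM against 4.27 to 4.89 and 3.86 to 4.56 FPKM, whereas Cd3d was lowest in WT (3.21 to 3.39, 15.2 to 16.4 and 6.78 to 13.1 FPKM) and Cd3g was at 5.27 to 7.38, 16.3 to 23.5 and 5.96 to 8.80 FPKM. These marker levels moved with genotype in every comparison with WT below, so cell makeup and genotype cannot be told apart there, nor can fewer cells of a type from less RNA per cell.

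Promoter sequence was read for the splicing factor genes on which the results turn, from RefSeq windows of 250 bases before the outermost start on GRCm38.p6, which 54 of the 69 genes had. Those of Prpf31 at chr7:3629735-3629984 (plus strand) and Lsm2 at chr17:34981604-34981853 (plus strand) are shown because these 2 genes were lower against WT however the values were scaled, that of Hnrnpf at chr6:117900090-117900339 (plus strand) because it was higher in the same way, and that of Magohb at chr6:131293245-131293494 (minus strand) because it was the 1 gene called between the knockouts. Capitals mark the CCAAT box, read as CCAAT, and the core bound by ETS factors, read as CCGGAA, on either strand.
Prpf31: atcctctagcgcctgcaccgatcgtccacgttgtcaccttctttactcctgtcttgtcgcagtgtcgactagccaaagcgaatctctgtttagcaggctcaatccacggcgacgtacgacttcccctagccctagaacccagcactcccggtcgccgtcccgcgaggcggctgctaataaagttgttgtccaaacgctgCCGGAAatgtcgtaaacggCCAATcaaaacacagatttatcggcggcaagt
Lsm2: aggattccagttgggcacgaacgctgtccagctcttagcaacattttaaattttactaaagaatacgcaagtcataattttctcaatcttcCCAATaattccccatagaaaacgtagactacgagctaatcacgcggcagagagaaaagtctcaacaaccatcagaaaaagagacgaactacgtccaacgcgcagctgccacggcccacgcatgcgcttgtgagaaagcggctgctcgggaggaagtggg
Hnrnpf: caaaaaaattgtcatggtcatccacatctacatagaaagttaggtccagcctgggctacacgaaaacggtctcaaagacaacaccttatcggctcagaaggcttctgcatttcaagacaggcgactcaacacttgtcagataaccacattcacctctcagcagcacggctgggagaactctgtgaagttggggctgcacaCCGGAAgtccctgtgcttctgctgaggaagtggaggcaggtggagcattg
Magohb: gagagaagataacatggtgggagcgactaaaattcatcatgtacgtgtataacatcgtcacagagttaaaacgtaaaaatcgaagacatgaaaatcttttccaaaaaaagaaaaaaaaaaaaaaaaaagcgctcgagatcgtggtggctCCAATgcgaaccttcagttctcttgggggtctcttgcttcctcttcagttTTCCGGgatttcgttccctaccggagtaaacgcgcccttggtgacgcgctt
The ETS core began 51 bases before the start in Prpf31 and Magohb and 50 bases before it in Hnrnpf, while the Lsm2 window held none of these letters. Hnrnpf was 1 of 8 genes higher in both knockouts on both scales. The windows of Rbm38 and Sf3b1, also among these 8, were read as well but are not shown. Neither held a CCAAT box or an ETS core. A CCAAT box began 32 bases before the start in Prpf31, 101 in Magohb and 159 in Lsm2. Prpf31 shares its promoter with Tfpt, which starts on the other strand 56 bases away.

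Across the 54 windows, the ETS core stood in 42.6%, against 21.8% of 6593 listed genes with a window and 12.3% of 27025 RefSeq genes. A CCAAT box stood in 50% of them, against 36.3% and 34.5%, and the GC box read as GGGCGG in 46.3%, against 57.8% and 32.96%. The TATA box read as TATAAA was in 11.1% (6.48% and 12.98%), the NRF1 site read as GCGCATGC in 7.41% (4.75% and 2.31%), the AP-1 site read as TGANTCA in 5.56% (4.38% and 6.85%), the CRE read as TGACGTCA in 1.85% (2.67% and 1.599%), a form of the NF-kB site read as GGGANTTTC in 1.85% (0.849% and 0.981%) and the YY1 site read as AAGATGGCG in 0% (1.14% and 0.592%), where the brackets give the listed and then the RefSeq genes. Both strands were searched, and no motif holds the letters of another. The core was in 3 of 8 windows of genes called higher in Tnfr2-/- than WT MDSCs and in 13 of 30 windows of genes called lower, which is 37.5% and 43.3%. Another gene started on the opposite strand within 1000 bases in 24.1% of the 54 windows, against 16.8% of listed and 10.5% of RefSeq genes. These are counts of letters with no test, and windows of related genes are not independent.

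Levels of the 69 genes ranged widely. The mean over the 6 samples was at least 1 FPKM in 64 genes and lower in 5. The most abundant were Hnrnpa2b1, Hnrnpk and Hnrnpab, abundant hnRNPs that coat nascent RNA. Snrpn, which encodes the neuronal Sm protein, was listed at 0 in both WT samples and stood under 0.001 FPKM in each knockout sample, and Rbm20, known for splicing titin in muscle, and Celf5, a neural family member, were at most 0.091 FPKM in any sample. These 3 genes were in the table although their levels were near 0.

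Against WT, most splicing factor genes were lower in both knockouts on the deposited scale, and so were most genes of the table. A gene was called at a limma adjusted p under 0.05 (Benjamini-Hochberg over all 8191 genes) and a fold change over 1.5 in FPKM + 1. In Tnfr2-/- against WT MDSCs, 36 of 69 genes were called lower (52.2%, against 57.1% of all genes), 9 higher (13.04%, against 13.6%) and 24 neither. In Tnfr1-/- against WT MDSCs, 43 were called lower (62.3%, against 60.7%), 9 higher (13.04%, against 14.1%) and 17 neither. The median log2 change was −0.63 for the splicing factor genes and −0.74 for all genes in Tnfr2-/-, and −0.78 and −0.83 in Tnfr1-/- cells. The splicing factor genes thus lay near the whole table, in the share called and in the median. The 2 comparisons share the WT samples.

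**Figure D1:**
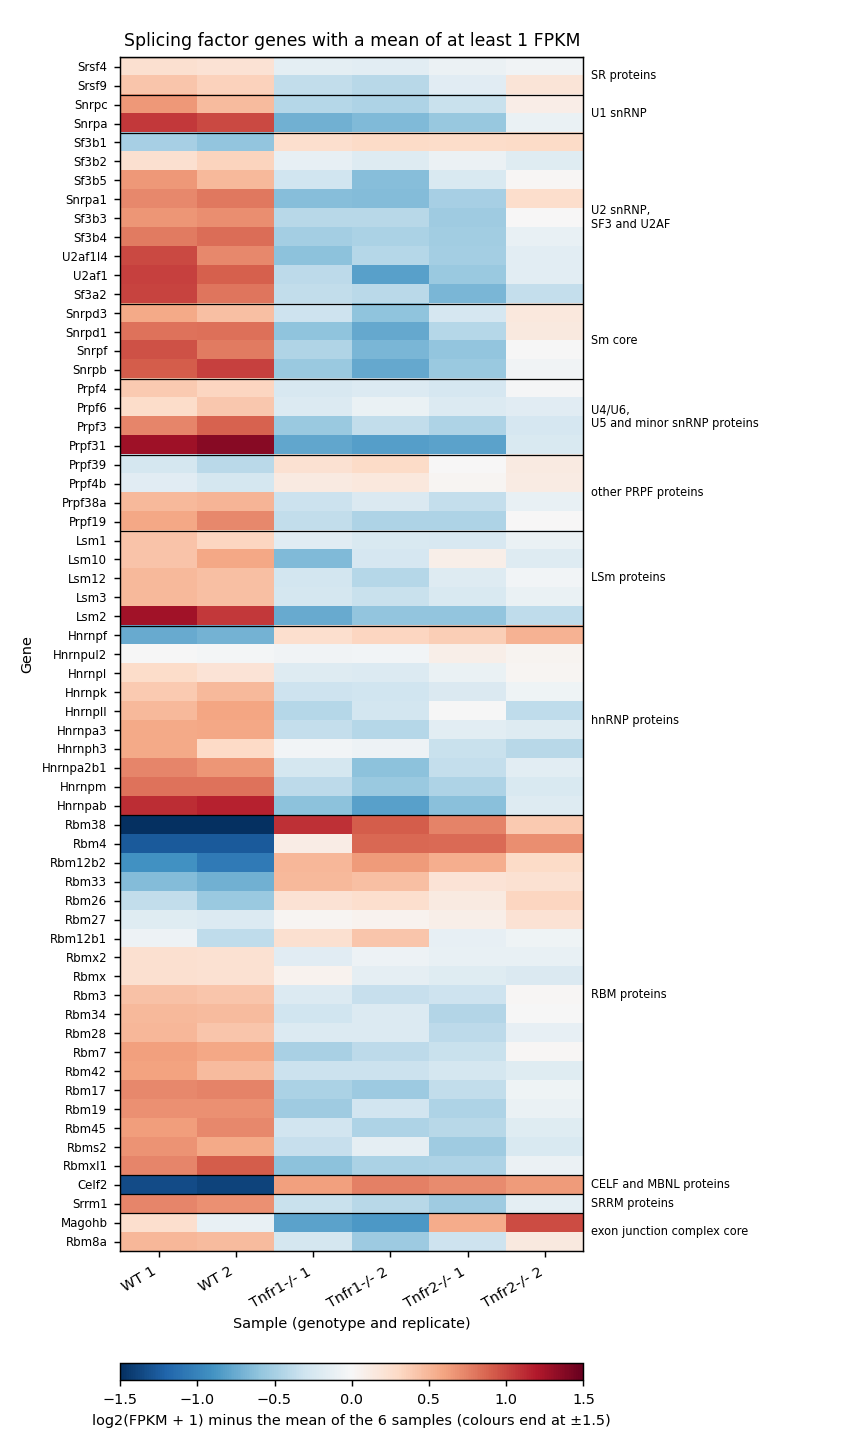
Heat map of 63 splicing factor genes with a mean of at least 1 FPKM (rows, grouped by role) in the 6 samples (columns). Colour gives log2(FPKM + 1) minus the gene's mean over the 6 samples, and most rows are red in the 2 WT samples, while Rbm38, Celf2, Rbm4, Rbm12b2, Hnrnpf and Rbm33 are blue there, on the deposited scale.

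Median-ratio scaling, which divides each sample by a factor that brings the typical listed gene to the same level, moved the median of all genes to −0.03 in both comparisons with WT. The median of the splicing factor genes then became 0.21 in Tnfr2-/- and 0.18 in Tnfr1-/- cells. In Tnfr2-/- against WT, 17 genes (24.6%) were called higher, against 21.8% of all genes, and 2 (2.899%) lower, against 21% of all genes. In Tnfr1-/- against WT, 17 genes (24.6%) were called higher, against 23.3%, and 4 (5.797%) lower, against 22.1%. Of the 36 genes lower in Tnfr2-/- as deposited, 34 were no longer called and 18 of the 36 had a positive change, whereas the 9 higher genes all remained higher and 8 uncalled genes became higher. The share of lower calls was then under that of all genes, and this difference was not tested. The call of these 34 genes, and the sign of 18, therefore rested on the scale.

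**Figure D2:**
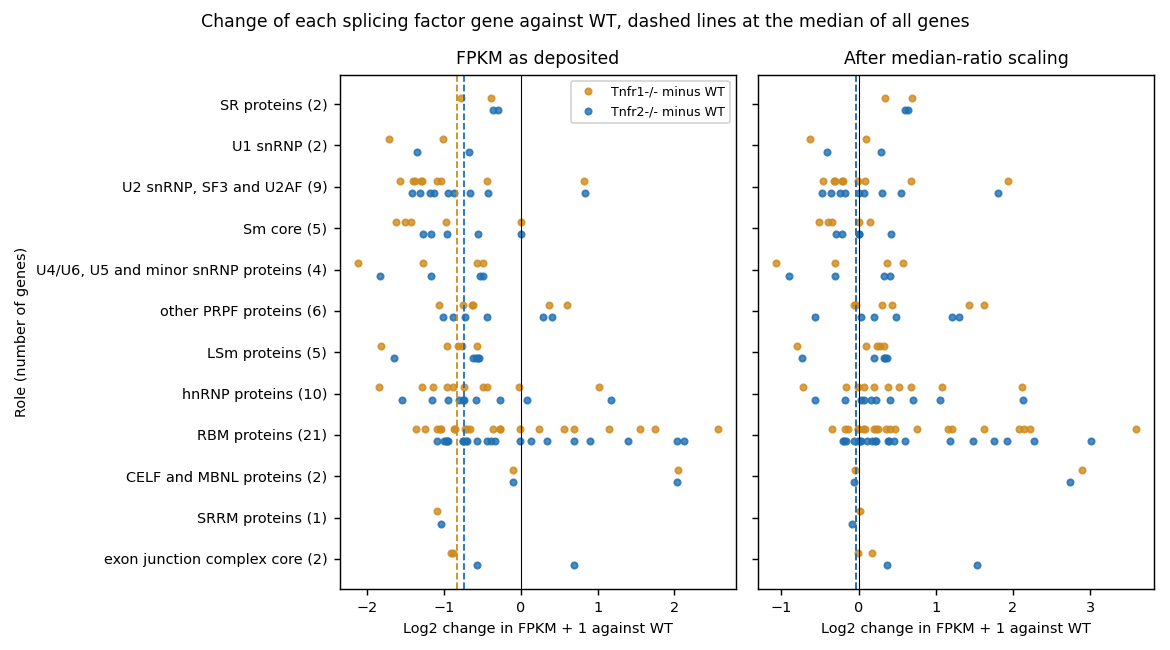
Log2 change in FPKM + 1 against WT of each splicing factor gene by role (rows, with the number of genes), orange for Tnfr1-/- and blue for Tnfr2-/- MDSCs, as deposited (left) and after median-ratio scaling (right). Dashed lines mark the median of all 8191 genes, which is −0.83 and −0.74 on the left and −0.03 for both on the right, and the bulk of points moves with these lines.

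Called in the same direction against WT in both knockouts and on both scales were 10 genes. Celf2, Rbm38, Rbm4, Rbm12b2, Hnrnpf, Rbm33, Sf3b1 and Rbm26 rose, and Prpf31 and Lsm2 fell. In each of them the 2 WT samples lay on one side of all 4 knockout samples, but so did nearly every gene: the groups did not overlap in 68 of the 69 genes in Tnfr2-/- against WT (98.6%, against 98.3% of all genes) and in 69 of 69 in Tnfr1-/- against WT (100%, against 99% of all genes). WT samples also differed from the others in macrophage and granulocyte markers, and the part of these cells in the rises and falls was not tested.

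Rbm38 had the largest rise among the 69 genes on the log2(FPKM + 1) scale, which understates low genes. By the ratio of means, Rbm4 exceeded it in both knockouts (56.03 in Tnfr2-/- and 44.8 in Tnfr1-/- cells) and Celf2 in Tnfr2-/- cells. The Rbm4 ratios divide by WT values near 0 (0.0595 and 0.0596 FPKM), so their size is uncertain. Rbm38 encodes an RNA-binding protein that p53 induces and that controls splicing and mRNA stability. Its values were 7.62 and 7.79 (WT), 54.03 and 47.5 (Tnfr1-/-) and 42.02 and 32.8 FPKM (Tnfr2-/-). The mean was 4.85 times the WT mean in Tnfr2-/- and 6.59 times in Tnfr1-/- cells. The log2 change was 2.13 (SE 0.14, limma adjusted p = 0.000145) in Tnfr2-/- and 2.57 (SE 0.14, limma adjusted p = 7.52e-05) in Tnfr1-/- cells. Tnfr2-/- samples lay below both Tnfr1-/- samples, with a log2 difference of −0.44 that was not called (limma adjusted p = 0.151), although it was called without Tnfr2-/- replicate 1 at −0.61 (limma adjusted p = 0.0366).

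Celf2, a CELF protein that binds UGU-rich RNA and regulates alternative exons, was at 2.26 and 2.16 (WT), 11.7 and 12.9 (Tnfr1-/-) and 12.5 and 11.9 FPKM (Tnfr2-/-). The knockouts lay close to each other and above WT by 5.51 times in Tnfr2-/- and 5.56 times in Tnfr1-/- cells. The log2 change was 2.04 (SE 0.09, limma adjusted p = 4.86e-05) in Tnfr2-/- and 2.05 (SE 0.09, limma adjusted p = 4.2e-05) in Tnfr1-/- cells. Rbm4, a regulator of alternative splicing, was near 0 in WT, at 0.0595 and 0.0596 (WT), 1.73 and 3.6 (Tnfr1-/-) and 3.55 and 3.12 FPKM (Tnfr2-/-). Its log2 change was 2.03 (SE 0.25, limma adjusted p = 0.00106) in Tnfr2-/- cells, but 66.5% of stretches of 50 bases (windows) along its transcript are found in another gene too, so its level is uncertain. Its relative Rbm4b, with 50.5% of shared windows, was at 1.08 and 0.967 (WT), 0.724 and 0.621 (Tnfr1-/-) and 0.597 and 0.498 FPKM (Tnfr2-/-), with log2 changes of −0.39 in Tnfr2-/- and −0.28 in Tnfr1-/- cells that were not called and were 0.04 and 0.23 after scaling. The pair thus differed in direction on the deposited scale.

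Hnrnpf encodes an hnRNP that binds runs of G in RNA and affects splice site choice. It was at 27.7 and 28.6 (WT), 56.3 and 59.3 (Tnfr1-/-) and 61.5 and 68.1 FPKM (Tnfr2-/-), about double in every knockout sample. The log2 change was 1.17 (SE 0.08, limma adjusted p = 0.000164) in Tnfr2-/- and 1.01 (SE 0.08, limma adjusted p = 0.000225) in Tnfr1-/- cells, and 67.3% of its windows are shared with another gene. Sf3b1, the large SF3b subunit that holds the branch site, was at 46.5 and 43.6 (WT), 79.1 and 80.9 (Tnfr1-/-) and 80.3 and 81.3 FPKM (Tnfr2-/-). Its log2 change was 0.83 (SE 0.07, limma adjusted p = 0.000288) in Tnfr2-/- and 0.82 (SE 0.07, limma adjusted p = 0.000267) in Tnfr1-/- cells, and none of its windows is shared with another gene. The 4 knockout samples lay within 3 FPKM of one another.

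Rbm26, a zinc finger protein linked to nuclear RNA decay, was at 4.56 and 3.88 (WT), 7.34 and 7.52 (Tnfr1-/-) and 6.87 and 7.93 FPKM (Tnfr2-/-), a log2 change of 0.69 in Tnfr2-/- and 0.69 in Tnfr1-/- cells. Rbm33 was at 6.71 and 6.35 (WT), 15.95 and 15.4 (Tnfr1-/-) and 12.9 and 13.1 FPKM (Tnfr2-/-), with log2 changes of 0.89 in Tnfr2-/- and 1.15 in Tnfr1-/- cells, so Tnfr1-/- samples were the highest. Rbm12b2 was at 1.08 and 0.869 (WT), 4.52 and 5.102 (Tnfr1-/-) and 4.68 and 3.76 FPKM (Tnfr2-/-), with log2 changes of 1.40 in Tnfr2-/- and 1.56 in Tnfr1-/- cells and 54.1% of shared windows. All 3 lay higher in each knockout sample than in either WT sample, at limma adjusted p of 0.00299, 0.000266 and 0.000403 in Tnfr2-/- cells. Rbm12b1, the neighbouring paralog, was at 1.22 and 0.808 (WT), 1.77 and 2.13 (Tnfr1-/-) and 1.15 and 1.24 FPKM (Tnfr2-/-) and was called in neither knockout as deposited and higher in both after scaling, with 63.1% of shared windows.

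Prpf31 and Lsm2 were the genes that fell on both scales in both knockouts. Prpf31, which joins U4/U6 to U5 and is mutated in inherited retinal degeneration, was at 26.5 and 28.2 (WT), 5.61 and 5.41 (Tnfr1-/-) and 5.497 and 8.73 FPKM (Tnfr2-/-). It was 3.84 times lower in Tnfr2-/- and 4.96 times lower in Tnfr1-/- cells, at log2 changes of −1.83 (SE 0.20, limma adjusted p = 0.000725) and −2.12 (SE 0.20, limma adjusted p = 0.000394), or −0.90 and −1.07 after scaling. Lsm2, a subunit of both the nuclear ring on U6 RNA and the cytoplasmic ring of mRNA decay, was at 20.9 and 18.1 (WT), 4.44 and 5.09 (Tnfr1-/-) and 5.07 and 6.01 FPKM (Tnfr2-/-). It was 3.52 and 4.09 times lower, at log2 changes of −1.65 (SE 0.13, limma adjusted p = 0.000244) and −1.83 (SE 0.13, limma adjusted p = 0.000155), or −0.74 and −0.79 after scaling. WT samples were highest in both genes with a gap wider than the spread of either knockout.

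**Figure D3:**
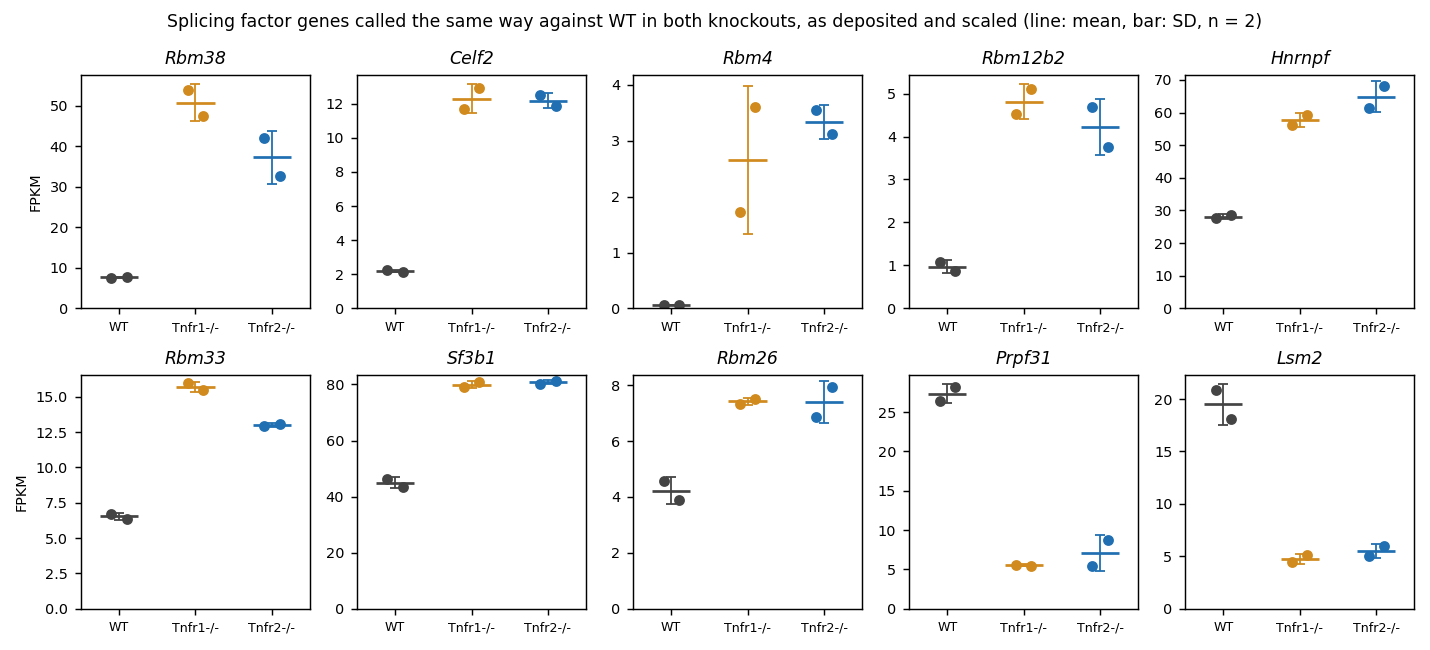
FPKM of the 10 splicing factor genes called in the same direction against WT in both knockouts, as deposited and after median-ratio scaling (points are samples, lines the mean and bars the SD of 2). The 8 rising genes have both WT samples below all 4 knockout samples, and Prpf31 and Lsm2 have both above.

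Ratios between genes of one sample do not depend on its scale, and 6 of them were formed after the values had been seen. Sf3b1 over the median of Sf3b2, Sf3b3, Sf3b4 and Sf3b5, which sit with it in the SF3b complex, was 0.937 and 0.837 in WT, 3.003 and 3.61 in Tnfr1-/- and 2.94 and 2.46 in Tnfr2-/- MDSCs. The ratio was thus 3.04 times higher in Tnfr2-/- than in WT cells, and the mRNAs of 1 complex did not keep a common proportion across the genotypes. Of the other subunits, Sf3b4 shares 51.2% of its windows with another gene. Hnrnpf over the median of the other 9 hnRNP genes was 0.435 and 0.472 in WT, 1.24 and 1.36 in Tnfr1-/- and 1.25 and 1.395 in Tnfr2-/- MDSCs. Prpf31 over the median of Prpf3, Prpf4 and Prpf6, its partners in the tri-snRNP, was 2.93 and 2.79 in WT, 1.41 and 1.32 in Tnfr1-/- and 1.401 and 1.83 in Tnfr2-/- MDSCs. Lsm2 over the median of the other 4 LSm genes was 1.196 and 0.992 in WT, 0.504 and 0.527 in Tnfr1-/- and 0.421 and 0.526 in Tnfr2-/- MDSCs. In these 4 ratios WT samples stood apart from all 4 knockout samples and the knockouts overlapped or adjoined. With 2 samples a genotype an exact permutation test cannot reach a two-sided p under 0.333, so no test is given for a ratio.

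**Figure D4:**
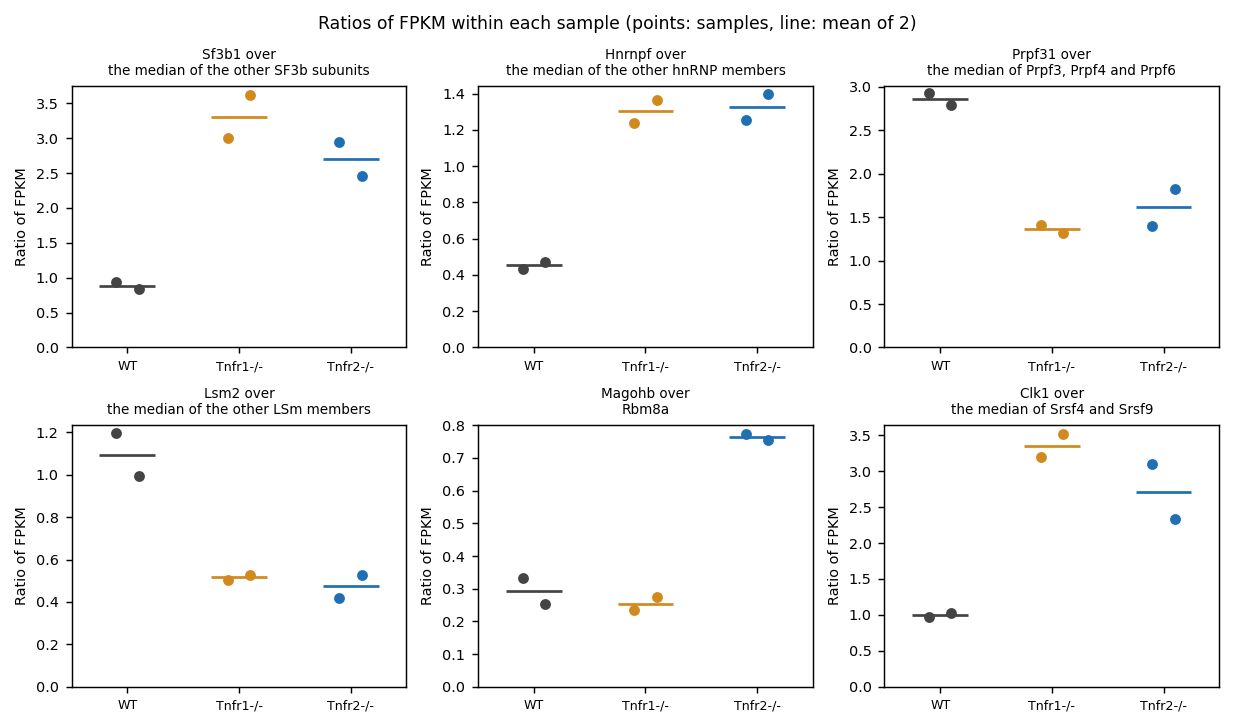
Ratios of FPKM within each sample by genotype (points are samples, lines the mean of 2). The first 4 panels and the Clk1 panel separate WT from both knockouts. Only Magohb over Rbm8a has the Tnfr2-/- samples, at 0.774 and 0.756, above the other 4. In the Sf3b1 and Clk1 panels the Tnfr2-/- samples lie between the WT and the Tnfr1-/- samples.

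By role, the lowest medians as deposited were those of the U1, U2, Sm core and SRRM genes, of which SRRM held 1 gene. For comparison with each role, 57.1% of all genes were called lower and 13.6% higher in Tnfr2-/- cells as deposited. In Tnfr1-/- cells these shares were 60.7% and 14.1%. After scaling they were 21% and 21.8% in Tnfr2-/- and 22.1% and 23.3% in Tnfr1-/- cells. Both U1 genes were called lower in both knockouts. Snrpa, which binds a stem-loop of U1 RNA, was at 33.9 and 32.1 (WT), 9.14 and 9.59 (Tnfr1-/-) and 10.3 and 14.6 FPKM (Tnfr2-/-), with log2 changes of −1.36 in Tnfr2-/- and −1.71 in Tnfr1-/- cells that were −0.41 and −0.63 after scaling, where only the second was called. Snrpc, which steadies pairing with the start of the intron, was at 48.5 and 43.2 (WT), 22.5 and 21.9 (Tnfr1-/-) and 24.2 and 33.1 FPKM (Tnfr2-/-), and its changes of −0.67 in Tnfr2-/- and −1.01 in Tnfr1-/- cells turned to 0.29 and 0.09 after scaling. Of 9 genes of U2, SF3 and U2AF, 7 were called lower and 1, Sf3b1, higher in each knockout, with medians of −0.95 and −1.29 as deposited and 0.00 and −0.20 after scaling in Tnfr2-/- and Tnfr1-/- cells. Sf3a2, part of the SF3a complex of the U2 snRNP, was at 32.3 and 27.8 (WT), 11.8 and 11.5 (Tnfr1-/-) and 9.29 and 11.96 FPKM (Tnfr2-/-), with changes of −1.42 in Tnfr2-/- and −1.29 in Tnfr1-/- cells (−0.48 and −0.20 after scaling). Sf3b2, which contacts the RNA beside the branch site, was at 64 and 68.2 (WT), 49.5 and 47.1 (Tnfr1-/-) and 50.7 and 47.3 FPKM (Tnfr2-/-), with changes of −0.42 in Tnfr2-/- and −0.44 in Tnfr1-/- cells that were not called and were 0.55 and 0.68 after scaling. U2af1 and U2af1l4, which read the end of the intron, were called lower in both knockouts as deposited at −1.31 in Tnfr2-/- and −1.57 in Tnfr1-/- cells for U2af1 and −1.18 in Tnfr2-/- and −1.37 in Tnfr1-/- cells for U2af1l4. After scaling they were −0.35 and −0.47, and −0.24 and −0.30, none of them called, and the genes share 59.4% and 97.2% of windows with other genes.

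Of 5 genes of the Sm ring, the core common to most snRNPs, 3 were called lower in Tnfr2-/- and 4 in Tnfr1-/- cells. Of all genes, 57.1% and 60.7% were called lower. After scaling none of the Sm genes was called in either knockout. Snrpb was at 99.4 and 108 (WT), 35.2 and 30.4 (Tnfr1-/-) and 35.4 and 50.7 FPKM (Tnfr2-/-), a log2 change of −1.27 in Tnfr2-/- and −1.63 in Tnfr1-/- cells (−0.29 and −0.51 after scaling). Snrpd3 was at 79.7 and 73.3 (WT), 42.8 and 34.8 (Tnfr1-/-) and 44.6 and 59.5 FPKM (Tnfr2-/-), with changes of −0.56 in Tnfr2-/- and −0.97 in Tnfr1-/- cells, of which only the second was called, and 0.42 and 0.15 after scaling. In the U4/U6 and U5 group, 2 of 4 genes were called lower in each knockout. Prpf6, which bridges the parts of the tri-snRNP, was at 20.2 and 22.2 (WT), 14.2 and 15.3 (Tnfr1-/-) and 14.1 and 14.5 FPKM (Tnfr2-/-) and was called in neither, at −0.53 in Tnfr2-/- and −0.50 in Tnfr1-/- cells (0.40 and 0.58 after scaling). The 5 LSm genes had 3 lower calls in Tnfr2-/- (against 57.1% of all genes) and 4 in Tnfr1-/- cells (against 60.7%). Lsm3 was at 31.4 and 30.7 (WT), 18.3 and 17.3 (Tnfr1-/-) and 18.8 and 20.7 FPKM (Tnfr2-/-) (−0.63 in Tnfr2-/- and −0.77 in Tnfr1-/- cells, 0.32 and 0.32 after scaling), and Lsm10, which serves the U7 snRNP of histone mRNA, at 17 and 19.1 (WT), 7.49 and 10.3 (Tnfr1-/-) and 13.3 and 10.8 FPKM (Tnfr2-/-) (−0.55 in Tnfr2-/- and −0.96 in Tnfr1-/- cells, 0.37 and 0.10 after scaling). No difference between the knockouts was called in the Sm and LSm genes.

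Other PRPF genes differed in direction. Of 6 genes, 3 were called lower and none higher in Tnfr2-/-, and 4 lower and 1 higher in Tnfr1-/- cells. Of all genes, 57.1% were lower and 13.6% higher in Tnfr2-/-, and 60.7% and 14.1% in Tnfr1-/- cells. After scaling, 2 of the 6 were called higher and 0 lower in each knockout. Prpf4b, a kinase of the spliceosome, was at 14.3 and 13.3 (WT), 17.98 and 18.2 (Tnfr1-/-) and 16.6 and 17.7 FPKM (Tnfr2-/-), with changes of 0.29 in Tnfr2-/- and 0.36 in Tnfr1-/- cells that were not called and became 1.21 and 1.43 after scaling, both called. Prpf39, a U1-associated protein, was at 9.59 and 8.62 (WT), 13.97 and 14.6 (Tnfr1-/-) and 11.8 and 13.04 FPKM (Tnfr2-/-) and was called higher in Tnfr1-/- cells at 0.60 but not in Tnfr2-/- cells at 0.41, a difference that was not called (limma adjusted p = 0.2902). Prpf40b was lower in the mean in Tnfr2-/- than Tnfr1-/- cells, at 1.59 and 1.46 (WT), 0.807 and 0.477 (Tnfr1-/-) and 0.208 and 0.285 FPKM (Tnfr2-/-), with −1.02 in Tnfr2-/- and −0.63 in Tnfr1-/- cells (−0.57 and −0.06 after scaling).

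Among hnRNP genes, 6 of 10 were called lower and 1, Hnrnpf, higher in each knockout as deposited. The lower calls thus lay near the shares of all genes, 57.1% in Tnfr2-/- and 60.7% in Tnfr1-/- cells. After scaling, 3 of the 10 were called higher and 0 lower in Tnfr2-/-, and 3 higher and 1 lower in Tnfr1-/- cells. Hnrnpab was at 168 and 173 (WT), 50 and 43.4 (Tnfr1-/-) and 49.8 and 67.3 FPKM (Tnfr2-/-), the largest fall of the family at −1.54 in Tnfr2-/- and −1.85 in Tnfr1-/- cells (−0.56 and −0.72 after scaling, where only the Tnfr1-/- change was called). Hnrnpa2b1, a reader of RNA motifs in splicing and transport, was at 182 and 172 (WT), 90.1 and 70.3 (Tnfr1-/-) and 84.8 and 97.3 FPKM (Tnfr2-/-) (−0.95 in Tnfr2-/- and −1.14 in Tnfr1-/- cells, 0.03 and −0.01 after scaling). Hnrnpk, which binds runs of C, was at 137 and 146 (WT), 83.6 and 83.8 (Tnfr1-/-) and 88.9 and 99.1 FPKM (Tnfr2-/-) (−0.58 in Tnfr2-/- and −0.75 in Tnfr1-/- cells, 0.40 and 0.39 after scaling), called in Tnfr1-/- cells as deposited. Hnrnpul2 was almost level as deposited, at 47.1 and 46.3 (WT), 45.4 and 46.1 (Tnfr1-/-) and 50.3 and 48.8 FPKM (Tnfr2-/-), and was called higher in both knockouts after scaling at 1.06 and 1.09. Hnrnpab stood near Hnrnpa2b1 in WT, below it in replicate 1 and just above it in replicate 2. It stood further below Hnrnpa2b1 in each knockout sample.

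Among 21 RBM genes, 5 were called higher and 9 lower in Tnfr2-/-, and 5 higher and 10 lower in Tnfr1-/- cells, with medians of −0.44 and −0.36 as deposited and 0.23 and 0.36 after scaling. Of all genes, 13.6% were called higher and 57.1% lower in Tnfr2-/-, and 14.1% and 60.7% in Tnfr1-/- cells, as deposited. Rbm7, part of a complex that feeds RNA to the nuclear exosome, was at 71.4 and 69.8 (WT), 32.8 and 35.1 (Tnfr1-/-) and 36.7 and 47.02 FPKM (Tnfr2-/-) (−0.75 in Tnfr2-/- and −1.03 in Tnfr1-/- cells, 0.23 and 0.09 after scaling). Rbm3, a cold-induced RNA-binding protein, was at 50.7 and 49.9 (WT), 32.2 and 29.01 (Tnfr1-/-) and 29.8 and 37.6 FPKM (Tnfr2-/-) (−0.57 in Tnfr2-/- and −0.70 in Tnfr1-/- cells, 0.40 and 0.41 after scaling). Rbmxl1, a retrogene copy of Rbmx, was at 14.9 and 16.97 (WT), 5.21 and 5.86 (Tnfr1-/-) and 5.93 and 7.97 FPKM (Tnfr2-/-) (−1.10 in Tnfr2-/- and −1.37 in Tnfr1-/- cells, −0.19 and −0.34 after scaling), with 78.98% of shared windows. All falling RBM genes lost their call after scaling. Both SR proteins in the table had negative changes as deposited and positive ones after scaling. Srsf9 was at 62.7 and 59.3 (WT), 35.7 and 34.7 (Tnfr1-/-) and 41.2 and 53.6 FPKM (Tnfr2-/-) (−0.37 in Tnfr2-/- and −0.78 in Tnfr1-/- cells, 0.61 and 0.34 after scaling), and Srsf4 at 19.1 and 18.7 (WT), 14.3 and 14.2 (Tnfr1-/-) and 14.9 and 15.4 FPKM (Tnfr2-/-) (−0.30 in Tnfr2-/- and −0.38 in Tnfr1-/- cells, 0.64 and 0.69 after scaling). Of the windows of Srsf4, 65.4% are shared with another gene. Srrm1, a coactivator that links SR proteins to the spliceosome, was at 42.7 and 41.4 (WT), 19.9 and 18.7 (Tnfr1-/-) and 17.3 and 22.9 FPKM (Tnfr2-/-) (−1.04 in Tnfr2-/- and −1.09 in Tnfr1-/- cells, −0.08 and 0.02 after scaling). Celf5 was at 0.0713 and 0.0909 (WT), 0.00637 and 0.0126 (Tnfr1-/-) and 0.00676 and 0.00667 FPKM (Tnfr2-/-), near 0 throughout, and was not called.

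Between the knockouts, 1 of 69 splicing factor genes was called higher in Tnfr2-/- than Tnfr1-/- MDSCs (1.45%, against 0.842% of all genes) and 0 lower (against 0.61%) by limma. After median-ratio scaling the counts were the same, against 1.09% and 1.45% of all genes. At an unadjusted p under 0.05, limma had 5 genes higher and 5 lower, against 1306 and 656 of all 8191 genes. The median log2 difference was 0.13 for the splicing factor genes and 0.06 for all genes, and 0.00 and −0.02 after scaling. The groups did not overlap in 33 of the 69 genes (47.8%), against 51% of all genes. The gene called was Magohb, one of a pair of genes for MAGOH, a core protein of the exon junction complex.

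Magohb was at 6.45 and 4.84 (WT), 2.597 and 2.45 (Tnfr1-/-) and 8.25 and 11.4 FPKM (Tnfr2-/-). Tnfr2-/- samples were the highest, Tnfr1-/- samples the lowest and WT samples between them, with no overlap. The log2 difference of Tnfr2-/- from Tnfr1-/- was 1.60 (SE 0.19, limma adjusted p = 0.0378), a ratio of 3.89 between the means, and 1.54 after scaling. Against WT, Magohb was called higher in Tnfr2-/- cells at 0.70 (SE 0.19, limma adjusted p = 0.0178) and lower in Tnfr1-/- cells at −0.91 (SE 0.19, limma adjusted p = 0.00661), and after scaling these were 1.53, called, and −0.01, not called. As deposited, the call in Tnfr2-/- against WT was lost without WT replicate 2 (0.52, limma adjusted p = 0.102) and without Tnfr2-/- replicate 2 (0.49, limma adjusted p = 0.0605). The call between the knockouts was lost with only the 2 genotypes in the model (limma adjusted p = 0.157), without the trend in the spread (limma adjusted p = 0.0562), and on leaving out any 1 of the other samples than Tnfr2-/- replicate 1 (limma adjusted p of 0.0734 to 0.155), with log2 differences of 1.39 to 1.63 there. On GRCm38 Magohb spans bases 131284388 to 131293244 of chromosome 6 on the minus strand, 5.92 megabases from Tnfrsf1a, the gene disrupted in Tnfr1-/- mice, and 55.7% of its windows occur in another gene. Magohb is not alone in this place, as Hnrnpf, not called between the knockouts, lies 7.42 megabases from Tnfrsf1a. Marker sums also stood apart between the knockouts, in the ranges given above for the 6 lists with listed genes. Monocytic, macrophage and dendritic cell sums were higher, and granulocyte, B cell and T and NK cell sums lower, in both Tnfr2-/- than in both Tnfr1-/- samples. Single markers did not all follow. C1qc was lower in both Tnfr2-/- samples (29.2 and 23.6 FPKM) than in Tnfr1-/- samples (29.4 and 32.9 FPKM). The knockouts overlapped in C1qa, Mertk, Vcam1 and Spic of the macrophage list, in Csf3r and Mmp9 of the granulocyte list and in Cd4. The part of the marked cells, of the place of Magohb near Tnfrsf1a and of its shared reads in its difference between the knockouts was not tested.

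Its partner Rbm8a, or Y14, which pairs with MAGOH in the complex, had a smaller difference between the knockouts. Magoh, the other gene of the pair for MAGOH, was not in the table, so the pair as a whole could not be set against Rbm8a. Rbm8a was at 19.4 and 19.02 (WT), 11.1 and 8.92 (Tnfr1-/-) and 10.7 and 15.02 FPKM (Tnfr2-/-), with changes of −0.57 in Tnfr2-/- and −0.88 in Tnfr1-/- cells (0.37 and 0.18 after scaling) and a difference between the knockouts of 0.32 that was not called (limma adjusted p = 0.359). Magohb over Rbm8a was 0.332 and 0.254 in WT, 0.234 and 0.274 in Tnfr1-/- and 0.774 and 0.756 in Tnfr2-/- MDSCs. This ratio was 3.01 times higher in Tnfr2-/- than Tnfr1-/- cells and overlapped between WT and Tnfr1-/-. Eif4a3 and Casc3, the other core proteins, were not called between the knockouts, at 0.34 and 0.00.

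**Figure D5:**
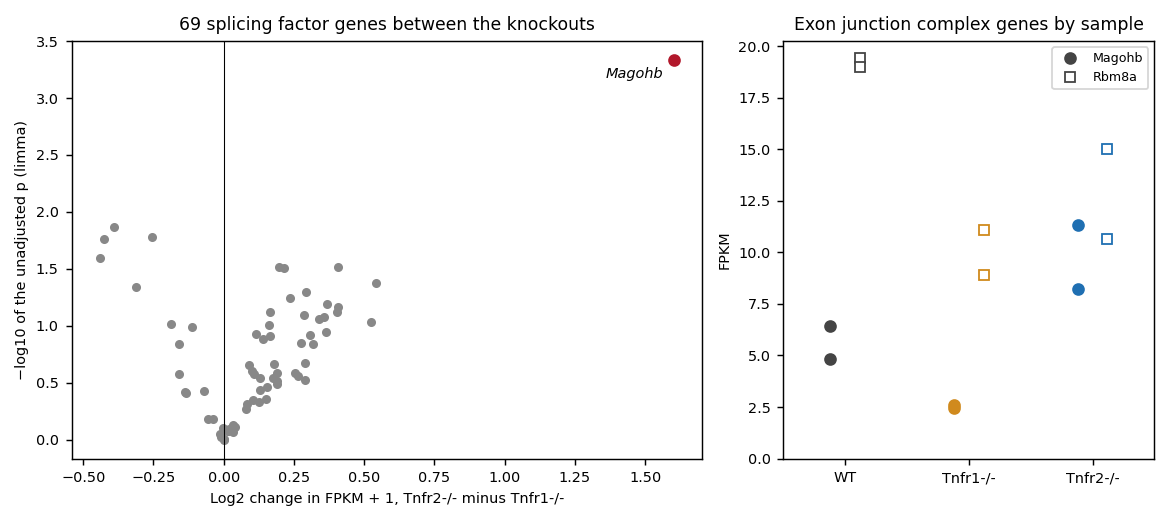
Left, log2 difference of Tnfr2-/- from Tnfr1-/- MDSCs in FPKM + 1 against −log10 of the unadjusted limma p for the 69 splicing factor genes, with the called gene in red. Right, FPKM of Magohb (filled circles) and Rbm8a (open squares) in each sample, where Magohb is at 8.25 and 11.4 in Tnfr2-/- and at 2.597 and 2.45 in Tnfr1-/- samples.

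Other genes of the pathway had shares of calls near those of the splicing factor genes. As deposited, 13.6% of all genes were called higher and 57.1% lower in Tnfr2-/- against WT, and 14.1% and 60.7% in Tnfr1-/- against WT. Of 92 genes from further lists, chosen like the roles with earlier results known, 10 (10.9%) were called higher and 45 (48.9%) lower in Tnfr2-/- against WT, 11 (11.96%) and 56 (60.9%) in Tnfr1-/- against WT, and 0 between the knockouts, where limma had 11 higher and 5 lower at an unadjusted p under 0.05. After scaling, 24 (26.1%) of these genes were higher and 4 (4.35%) lower in each comparison with WT. Of all genes, 21.8% were then higher and 21% lower in Tnfr2-/-, and 23.3% and 22.1% in Tnfr1-/- cells. The 6 Snrnp genes, among them Snrnp70 of U1, had 0 higher and 3 lower calls in Tnfr2-/- and 0 and 5 in Tnfr1-/- cells as deposited, and 1 and 1, and 1 and 0, after scaling.

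Kinases that phosphorylate SR proteins had the highest median of these lists. Of 6 listed kinases, 3 were called higher and 1 lower in Tnfr2-/- and 3 higher and 0 lower in Tnfr1-/- cells as deposited. Of all genes, 13.6% were called higher and 57.1% lower in Tnfr2-/-, and 14.1% and 60.7% in Tnfr1-/- cells. The medians of the kinases were 0.78 and 0.73 as deposited, against −0.74 and −0.83 for all genes, and 1.67 and 1.76 after scaling. Clk1, chosen after its values were seen, was at 39.8 and 39.9 (WT), 79.8 and 85.9 (Tnfr1-/-) and 86.9 and 80.4 FPKM (Tnfr2-/-), with log2 changes of 1.05 in Tnfr2-/- and 1.04 in Tnfr1-/- cells and a limma adjusted p of 0.000212 and 0.000194. Clk2, the largest rise, was at 4.85 and 3.72 (WT), 13.7 and 13.7 (Tnfr1-/-) and 12.3 and 14.04 FPKM (Tnfr2-/-) (1.43 in Tnfr2-/- and 1.48 in Tnfr1-/- cells). Dyrk1a, also chosen after its values were seen, was at 6.01 and 5.99 (WT), 13.4 and 13.01 (Tnfr1-/-) and 13.7 and 12.6 FPKM (Tnfr2-/-) (1.01 in Tnfr2-/- and 1.02 in Tnfr1-/- cells). These 3 roughly doubled or more in each knockout. Srpk1, the cytoplasmic SR protein kinase, was the 1 kinase called lower, in Tnfr2-/- cells as deposited, at 13.9 and 14.04 (WT), 9.16 and 8.89 (Tnfr1-/-) and 6.67 and 7.31 FPKM (Tnfr2-/-) (−0.91 in Tnfr2-/- and −0.58 in Tnfr1-/- cells, −0.01 and 0.47 after scaling, where it was not called). Clk3 also had negative changes as deposited, not called, at 19.05 and 17.5 (WT), 12.3 and 12.5 (Tnfr1-/-) and 13.2 and 13.4 FPKM (Tnfr2-/-) (−0.43 in Tnfr2-/- and −0.52 in Tnfr1-/- cells, 0.50 and 0.54 after scaling). Clk4 was at 15.9 and 14.5 (WT), 20.96 and 21.2 (Tnfr1-/-) and 21.4 and 24.1 FPKM (Tnfr2-/-) (0.55 in Tnfr2-/- and 0.45 in Tnfr1-/- cells), called in both knockouts only after scaling, at 1.48 and 1.52. Clk1 over the median of Srsf4 and Srsf9, its kind of substrate, was 0.974 and 1.02 in WT, 3.19 and 3.51 in Tnfr1-/- and 3.09 and 2.33 in Tnfr2-/- MDSCs, so the kinase mRNA stood higher relative to that of these SR proteins in each knockout sample. Srsf4 shares 65.4% of its windows with another gene.

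In the remaining lists the gene with the largest rise and that with the largest fall were taken. Rnps1, which binds beside the exon junction complex, had the deepest fall of the 92 genes, at 37.7 and 35.99 (WT), 4.28 and 4.14 (Tnfr1-/-) and 4.04 and 5.91 FPKM (Tnfr2-/-) (−2.68 in Tnfr2-/- and −2.86 in Tnfr1-/- cells, −1.75 and −1.81 after scaling, both called), with 30.6% of shared windows. Raly, an hnRNP relative, was at 81.1 and 75.6 (WT), 18.2 and 16.01 (Tnfr1-/-) and 18.96 and 20.6 FPKM (Tnfr2-/-) (−1.93 in Tnfr2-/- and −2.13 in Tnfr1-/- cells, −0.96 and −1.02 after scaling), and Ppil1, a spliceosomal prolyl isomerase, at 32.02 and 29.98 (WT), 7.504 and 6.52 (Tnfr1-/-) and 6.94 and 9.43 FPKM (Tnfr2-/-) (−1.81 in Tnfr2-/- and −2.00 in Tnfr1-/- cells, −0.87 and −0.93 after scaling). These 3 were called lower on both scales. Txnl4a, a small U5 protein, rose from the lowest WT level of this group, at 2.43 and 1.84 (WT), 8.901 and 8.89 (Tnfr1-/-) and 9.11 and 10.3 FPKM (Tnfr2-/-) (1.78 in Tnfr2-/- and 1.67 in Tnfr1-/- cells). Ptbp3, a relative of the polypyrimidine tract-binding protein, was at 40.5 and 40.7 (WT), 89.2 and 94.2 (Tnfr1-/-) and 105 and 80.5 FPKM (Tnfr2-/-) (1.16 in Tnfr2-/- and 1.16 in Tnfr1-/- cells). Syf2, of the Prp19-related complex, was at 36.1 and 38.5 (WT), 54.9 and 60.6 (Tnfr1-/-) and 60.7 and 60.4 FPKM (Tnfr2-/-) (0.69 in Tnfr2-/- and 0.62 in Tnfr1-/- cells), and Pnisr, an SR-related protein, at 16.1 and 13.8 (WT), 27.5 and 27.8 (Tnfr1-/-) and 24.01 and 22.9 FPKM (Tnfr2-/-) (0.62 in Tnfr2-/- and 0.85 in Tnfr1-/- cells). These 4 were called higher on both scales. Zcrb1, of the minor spliceosome, was at 39.5 and 36.3 (WT), 13.5 and 10.2 (Tnfr1-/-) and 13.5 and 14.9 FPKM (Tnfr2-/-) (−1.35 in Tnfr2-/- and −1.61 in Tnfr1-/- cells, −0.40 and −0.52 after scaling), and Gemin4, of the complex that loads Sm rings, at 4.59 and 5.09 (WT), 1.35 and 1.55 (Tnfr1-/-) and 1.34 and 1.52 FPKM (Tnfr2-/-) (−1.26 in Tnfr2-/- and −1.25 in Tnfr1-/- cells, −0.53 and −0.42 after scaling, with 94.9% of shared windows), and neither kept its call after scaling.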

How the data were processed

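RNA of splenic MDSCs was measured by mRNA-seq in 6 samples. The authors deposited FPKM values for 8191 genes and a p-value per gene from a one-way ANOVA over the genotypes. The p-value column was not used. The submitters' processing notes name FastQC, edgeR and mm10, and the aligner is not given in the sources used here. edgeR needs counts and was not run. FPKM were taken as log2(FPKM + 1) and fitted with limma 3.58.1 in R 4.3.3 (trend, all 6 samples, genotype only), two-sided, with Benjamini-Hochberg adjustment over all genes, and a gene was called at an adjusted p under 0.05 and a fold change over 1.5. The fit was tested on simulated data first. The 69 genes, the role and pathway lists and the markers were chosen with earlier results of these data known. Genes named were, in each role, the 2 most abundant and the largest called rise and fall in Tnfr2-/- against WT, all genes called between the knockouts, 10 genes called on both scales, and in each pathway list the largest rise and fall. A gene that this rule names is not reported here. Prpf39, Rbm4b, Rbm12b1, Hnrnpul2, U2af1, U2af1l4, Rbm20, Snrpn, Clk1, Clk3, Clk4, Dyrk1a, Eif4a3, Casc3, Snrnp70 and Tfpt were named after their values were seen. Alternatives were a pseudocount of 0.1, genes of at least 1 FPKM, median-ratio or quantile scaling, 2 genotypes in the model, a replicate block, no trend, and each sample left out. GENCODE M21 on GRCm38, the mm10 build, gave positions. Protein sequences were not analysed here.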

Additional observations from a re-analysis of the deposited data

How the results depend on the processing

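Directions against WT depended on the scale. In Tnfr2-/- against WT the counts of splicing factor genes called higher and lower were 9 and 36 as deposited, 17 and 2 with median-ratio scaling and 14 and 4 with quantile normalization, and in Tnfr1-/- against WT they were 9 and 43, 17 and 4, and 15 and 6. The median log2 change was 0.21 and 0.13 (Tnfr2-/-), 0.18 and 0.035 (Tnfr1-/-) and −3.39e-05 and −0.0011 (between the knockouts) with these scalings in turn. With a pseudocount of 0.1 the medians against WT were −0.70 and −0.88, and over genes of at least 1 FPKM the second was −0.86. Named genes whose change in Tnfr2-/- against WT turned positive, with median-ratio and then quantile values, were Hnrnpk (0.40 and 0.33), Lsm10 (0.37 and 0.18), Lsm3 (0.32 and 0.15), Prpf6 (0.40 and 0.22), Rbm3 (0.40 and 0.25), Rbm7 (0.23 and 0.13), Rbm8a (0.37 and 0.16), Sf3b2 (0.55 and 0.45), Snrpc (0.29 and 0.14), Snrpd3 (0.42 and 0.32), Srsf4 (0.64 and 0.44), Srsf9 (0.61 and 0.50) and, with median-ratio scaling only, Hnrnpa2b1 (0.033). By construction both scalings bring the typical gene to the same level in all samples. After quantile normalization the whole table had a median log2 change against WT of −0.047 (Tnfr2-/-) and −0.062 (Tnfr1-/-). How much of the table was called on that scale is not given. The quantile counts above therefore cannot show whether splicing factor genes differed from other genes. The 1 gene higher between the knockouts, Magohb, was not called with 2 genotypes in the model, no trend or the replicate block (0 each).

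Leaving out 1 sample at a time gave 8 to 9 higher and 29 to 41 lower genes in Tnfr2-/- against WT, with a median of −0.74 to −0.51, and 8 to 10 and 42 to 46 in Tnfr1-/- against WT, with a median of −0.81 to −0.76. Between the knockouts the ranges were 0 to 6 higher and 0 to 1 lower, with a median of 0.014 to 0.22. The 6 higher genes came without Tnfr2-/- replicate 1 (Magohb, Snrpa, Snrpa1, Snrpb, Snrpd1 and Srsf9, with Rbm38 lower), and that genotype then rests on 1 sample assumed to vary like the others. Deviations of same-numbered samples from their group means correlated at 0.02 to 0.05 over 8191 genes. This shows no strong shift shared by number, but it cannot show whether the numbers pair the samples by experiment. With the replicate block the counts against WT were 9 and 36, and 9 and 43, and Magohb's log2 difference was 1.60 at a limma adjusted p of 0.0781. For the fits with 1 sample left out, the part of the whole table that was called is not given either. Their numbers of called genes thus show how steady the calls were, not whether splicing factor genes stood out. Depth limits could not be set without counts.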
